A study of Homo sapiens with 6 samples.

Results

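Cytochrome P450 genes were examined in PLC/PRF5, a hepatocellular carcinoma line of human origin, with and without knockdown of MTR4, the RNA helicase that feeds transcripts to the nuclear exosome. The members are the protein-coding genes whose GENCODE symbol begins with CYP followed by a family number, a subfamily letter and a gene number, and there were 57 of them among the 60675 genes counted in the series. RNA-seq libraries were made from total RNA of 3 control and 3 MTR4 KD samples, all grown in DMEM with fetal bovine serum. The labels call the groups control and MTR4 KD. The study describes its sequenced cells as carrying an MTR4 shRNA under doxycycline control, compared before and after induction, so the antibiotic and the shRNA go together. No library of doxycycline-treated cells with a scramble shRNA was analysed here, and the labels do not name the vector. Nothing states that the 3 samples of a group were separate cultures, so p-values measure the spread between these samples.

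P450 enzymes are haem-thiolate monooxygenases of the endoplasmic reticulum and the mitochondria, which insert oxygen into lipophilic substrates with electrons from a reductase partner. In the liver, families CYP1, CYP2 and CYP3 oxidise drugs and other xenobiotics, and other families make bile acids from cholesterol or hydroxylate vitamin D, fatty acids and retinoic acid. Many of the xenobiotic genes are induced through receptors that sense their substrates, such as the aryl hydrocarbon receptor (AHR), the pregnane X receptor (PXR, gene NR1I2) and the constitutive androstane receptor (CAR, gene NR1I3).

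The number of reads counted on genes ranged from 60686786 to 72708682 across the 6 libraries. Reads with more than 1 alignment made up 34.7% to 37.5% of all entries in 3 libraries (the first and the third control and the third MTR4 KD sample). In the other three they made up 14.8% to 18.2%. These are called here the alignment classes rich and poor in non-unique reads, and each class held both groups. No label names a batch, so results are given from a fit with condition only and, where the call differs, from a fit with the alignment class as a covariate. MTR4 itself (current symbol MTREX) was at 72.2, 87.3 and 74.3 CPM (a gene's count relative to the library total as scaled by TMM) in the control libraries and at 44.5, 48.8 and 44.1 CPM in the MTR4 KD libraries. Its log2 fold change was -0.77 (standard error, SE, 0.0897; adjusted p = 0.00641 by the quasi-likelihood test of edgeR), and every MTR4 KD library lay below every control library. All 9 hepatocyte markers were detected, and ALB (albumin) was at 739 to 760 CPM in the control and at 869 to 952 CPM in the MTR4 KD libraries.

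Of the 57 P450 genes, 34 had enough reads to be tested and 23 did not. Among the 34, 4 genes rose (CYP1A1, CYP2D6, CYP4F3 and CYP4F12) and 2 fell (CYP24A1 and CYP2S1) at an adjusted p under 0.05. These 6 genes are 17.6% of the tested members, against 3.6% of all 18075 tested genes, where 1.48% rose and 2.12% fell. CYP1A1 and CYP24A1 also passed a fold change of 2, as 0.83% of all tested genes did with an adjusted p under 0.05. With the alignment class as a covariate 9 members rose and 2 fell, which is 32.4% of the members, against 20.2% of all tested genes. The added 5 were CYP3A7, CYP8B1, CYP2U1, CYP4V2 and CYP20A1. In 16 of the 34 genes (47.1%) the libraries of the groups did not overlap, 11 with MTR4 KD above and 5 with MTR4 KD below, whereas this held for 24.7% of all tested genes. The median log2 fold change of the 34 genes was 0.29, beside 0.01 for all tested genes. A change in these bulk samples cannot tell fewer cells expressing a gene from less RNA per cell.

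The P450 repertoire of these cells was led by CYP2S1, an epithelial xenobiotic and retinoid-metabolising P450. Per kilobase of annotated exon, its level in the control libraries was 65.4 ± 8.56 CPM per kb (SD, n = 3). The levels of CYP4F3 (14.9 ± 0.295 CPM per kb), CYP27A1 (10.2 ± 0.278 CPM per kb), CYP1A1 (8.42 ± 0.722 CPM per kb), CYP24A1 (8.12 ± 0.691 CPM per kb) and CYP2R1 (5.63 ± 0.199 CPM per kb) followed (SD, n = 3 each). Of these 6 levels, those of CYP1A1 and CYP24A1, adjacent in this order of levels, did not differ beyond their spread. CYP3A4, the main drug-oxidising P450 of adult liver, was low, with a level of 0.0444 ± 0.0132 CPM per kb (SD, n = 3). Summed over the 57 members, the level per exon length was 127.7 to 144.6 CPM per kb in the control and 122.8 to 124.8 CPM per kb in the MTR4 KD libraries. CYP2S1 held 44.6% to 51.2% of that sum in the control and 31.8% to 35.2% in the MTR4 KD libraries. The share of CYP1A1 was 5.75% to 6.82% in the control and 12.3% to 15.5% in the MTR4 KD libraries. CYP24A1 went the other way, from 5.67% to 6.16% of the sum in the control to 2.77% to 3.03% in the MTR4 KD libraries.

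**Figure D1:**
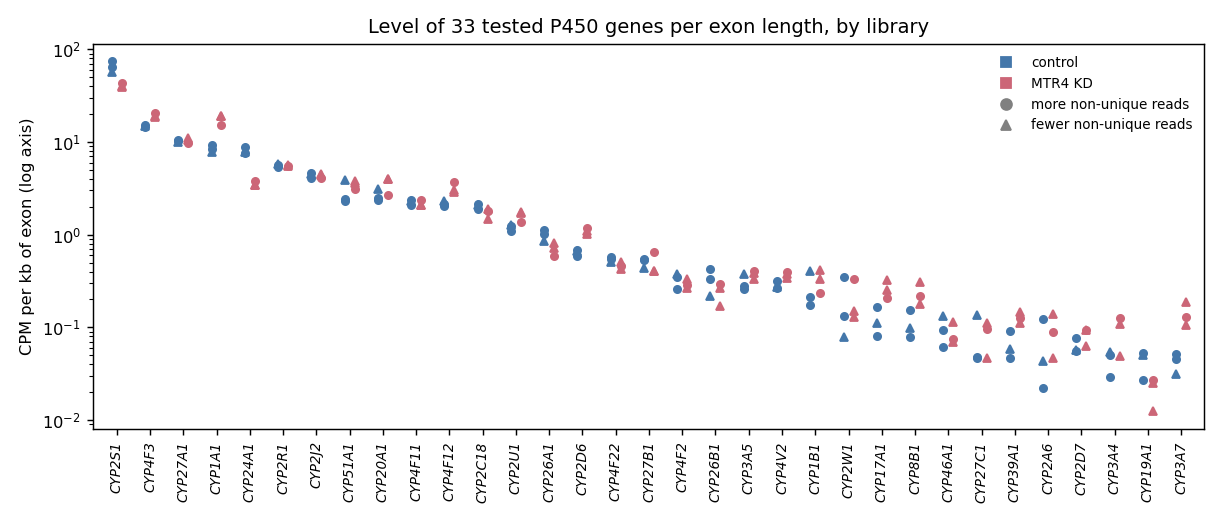
Level of 33 of the 34 tested P450 genes in CPM per kb of exon on a log axis, 1 point per library, with genes ordered by their control mean. Blue is control and red is MTR4 KD, and circles and triangles are the alignment classes rich and poor in non-unique reads. CYP2S1 stands above all others, and the red points of CYP1A1 lie above and those of CYP24A1 below the blue ones.

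The 23 untested members were at or near the limit of detection. No read was counted in any library for 6 of them: CYP4A11, CYP4A22, CYP4Z1, CYP11A1, CYP11B2 and the readthrough gene CYP3A7-CYP3A51P. A count of 0 allows a level of up to 0.0413 to 0.0494 CPM (3 reads) in these libraries, by counting error only. Another 10 had 1 to 10 reads over the 6 libraries together, among them CYP7A1, the rate-limiting enzyme of bile acid synthesis from cholesterol, with 2 reads. The other 7 had more, up to the 50 reads of CYP7B1. CYP2B6 had 11, 10 and 9 reads in the control and 2, 5 and 3 in the MTR4 KD libraries. CYP2F1 had 9, 12 and 7 reads in the control and 2, 3 and 0 in the MTR4 KD libraries. In both genes every MTR4 KD library was below every control. The groups overlapped for CYP2C8 (5, 14 and 9 against 2, 6 and 1 reads), CYP2A7 (1, 1 and 4 against 10, 3 and 1) and CYP7B1 (10, 10 and 2 against 10, 7 and 11). CYP2E1, the ethanol-oxidising P450 that is abundant in liver, had 4, 11 and 12 reads in the control and 6, 6 and 7 reads in the MTR4 KD libraries. Of the 34 tested genes, 4 had fewer than 3 control libraries at the filter's minimum of 10 counts for a library of median size: CYP2A6, CYP39A1, CYP3A4 and CYP3A7. CYP2A6 and CYP19A1 had fewer than 3 MTR4 KD libraries at it.

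Of the 22 xenobiotic P450 genes, 12 were tested, of which 2 rose, 1 fell and 9 did not pass the test. CYP1A1, which oxidises polycyclic aromatic hydrocarbons and is the classical target gene of AHR, was at 30.9, 26.1 and 28.0 CPM in control replicates 1, 2 and 3. In MTR4 KD replicates 1, 2 and 3 it was at 63.9, 64.0 and 51.2 CPM, so that every MTR4 KD library lay above every control library. This was a 2.11-fold rise, with a log2 fold change of 1.08 (SE 0.109, edgeR, adjusted p = 0.00340). Within the alignment classes the log2 difference was 0.80 in the rich and 1.29 in the poor class. Here and below, these differences carry no error, because in each class a single library stands for 1 group. It is MTR4 KD replicate 3 in the rich and control replicate 2 in the poor class. In the RefSeq annotation CYP1A1 (ENSG00000140465) lies on chromosome 15 of GRCh38 from 74719542 to 74725528, on the minus strand.

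The promoter sequences of the called members that are in the RefSeq promoter table (build GRCh38.p14) are given here, so that the genes that moved apart can be compared at their start sites. Each runs 5′ to 3′ from 250 bases before to 50 after an annotated start. Capitals mark the AHR core motif GCGTG, the nuclear receptor core motif AGGTCA and the TATA box TATAAA, each searched on both strands, and no 2 matches overlap. The windows are chr15:74725479-74725778 (minus strand), chr19:41192969-41193268 (plus strand) and chr19:15641062-15641361 (plus strand).
CYP1A1: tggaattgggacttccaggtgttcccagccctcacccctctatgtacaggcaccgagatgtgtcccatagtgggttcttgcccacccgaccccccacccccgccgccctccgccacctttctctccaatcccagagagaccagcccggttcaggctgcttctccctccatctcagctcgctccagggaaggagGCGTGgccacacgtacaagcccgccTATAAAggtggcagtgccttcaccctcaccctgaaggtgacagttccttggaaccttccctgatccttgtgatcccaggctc
CYP2S1: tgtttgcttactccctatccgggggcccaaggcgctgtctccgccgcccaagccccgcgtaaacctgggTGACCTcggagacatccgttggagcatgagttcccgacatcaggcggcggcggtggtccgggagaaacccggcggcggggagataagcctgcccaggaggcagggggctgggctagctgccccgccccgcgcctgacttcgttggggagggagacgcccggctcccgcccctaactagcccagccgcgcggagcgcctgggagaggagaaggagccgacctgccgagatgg
CYP4F3: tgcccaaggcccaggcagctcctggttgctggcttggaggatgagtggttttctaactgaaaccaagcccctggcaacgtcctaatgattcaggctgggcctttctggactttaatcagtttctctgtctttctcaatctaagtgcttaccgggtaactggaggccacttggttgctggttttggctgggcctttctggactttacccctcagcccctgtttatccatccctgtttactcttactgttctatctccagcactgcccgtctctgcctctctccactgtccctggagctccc
In the CYP1A1 window GCGTG begins 57 bases and TATAAA 32 bases before the start site. The CYP2S1 window holds AGGTCA on the other strand and neither of the other motifs, and the CYP4F3 window holds none of the 3. The CYP4F3 window lies inside the annotated gene, which starts at 15640897. Bases outside the windows were not searched. Over all 35116 promoter windows of the table, 36.5% hold GCGTG, 13.8% hold AGGTCA and 11.5% hold TATAAA. The AHR core motif was in any window of 9 of the 24 tested members with an entry. Some members have several windows, so this count is per gene, unlike the shares per window. A match is a description of these letters and not a site of binding.

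The other CYP1 genes gave no call. CYP1B1, the extrahepatic AHR target that activates procarcinogens and oestrogens, was at 1.05, 2.46 and 1.28 CPM in the control and at 2.52, 1.99 and 1.40 CPM in the MTR4 KD libraries. Its groups overlapped, with a log2 fold change of 0.30 (95% interval -0.55 to 1.15), and the control library in the poor class was the highest of the controls. CYP1A2, the caffeine-oxidising neighbour of CYP1A1 on chromosome 15, had 5, 2 and 4 reads in the control and 6, 6 and 2 reads in the MTR4 KD libraries and was not tested.

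CYP2S1, the most abundant member, was at 177, 154 and 201 CPM in the control and at 106, 109 and 118 CPM in the MTR4 KD libraries. Its groups did not overlap, and the log2 fold change was -0.68 (SE 0.103, edgeR, adjusted p = 0.0169), a level 1.60-fold higher in the control libraries. The log2 difference was -0.67 in the rich and -0.52 in the poor class. When control replicate 1, control replicate 3, MTR4 KD replicate 1 or MTR4 KD replicate 2 was left out, its adjusted p lay between 0.0630 and 0.108. CYP2S1 is known, like CYP1A1, to be inducible by dioxin through AHR. CYP1A1 rose and CYP2S1 fell in these libraries, and the part of AHR in either change was not tested. CYP2S1 (ENSG00000167600) lies on chromosome 19 of GRCh38 from 41193219 to 41207539.

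CYP2D6, which oxidises many antidepressants and opioids, was low but separated, at 1.59, 1.53 and 1.36 CPM in the control and at 2.36, 2.51 and 2.71 CPM in the MTR4 KD libraries. The log2 fold change was 0.76 (SE 0.149, edgeR, adjusted p = 0.0411), and the log2 difference was 0.86 in the rich and 0.65 in the poor class. This call was lost with any 1 library left out, with adjusted p-values from 0.0608 to 0.179. CYP2D7, its near-identical neighbour on chromosome 22, had a log2 fold change of 0.39 (95% interval -0.41 to 1.19). Reads that fit both copies are non-unique and were not counted on either, so the division of reads between this pair is uncertain.

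The CYP3A genes, which carry out much of the drug oxidation of the adult (CYP3A4, CYP3A5) and the fetal liver (CYP3A7), lay higher in the mean of the MTR4 KD libraries, without a call by edgeR with condition only. CYP3A7 had 10, 8 and 11 reads in the control and 23, 44 and 28 reads in the MTR4 KD libraries, and its groups did not overlap. Its log2 fold change of 1.71 was the largest rise of any member (SE 0.377, edgeR, adjusted p = 0.0597), and with the alignment class it was 1.76 (adjusted p = 0.0161). DESeq2 also called CYP3A7 (log2 fold change 1.72, adjusted p = 0.0181), which made 5 rising members with that tool. Only 1 control library reached the count minimum for CYP3A7, and its annotated readthrough partner overlaps its exons. CYP3A4 had 6, 13 and 10 reads in the control and 22, 11 and 26 reads in the MTR4 KD libraries, which overlapped (log2 fold change 1.08, 95% interval -0.04 to 2.20). CYP3A5 was at 2.77, 3.67 and 2.57 CPM in the control and at 3.27, 3.82 and 4.03 CPM in the MTR4 KD libraries, with a log2 fold change of 0.30 (95% interval -0.10 to 0.70). CYP3A43 had no read in any control library and 6, 4 and 0 reads in the MTR4 KD libraries. CYP2A6, which oxidises nicotine, CYP2C18 and CYP2W1 had log2 fold changes of 0.53, -0.26 and 0.13, and none had an adjusted p under 0.05. CYP2C18 was at 4.96, 4.86 and 4.43 CPM in the control and at 3.39, 4.37 and 4.17 CPM in the MTR4 KD libraries, all below the controls.

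**Figure D2:**
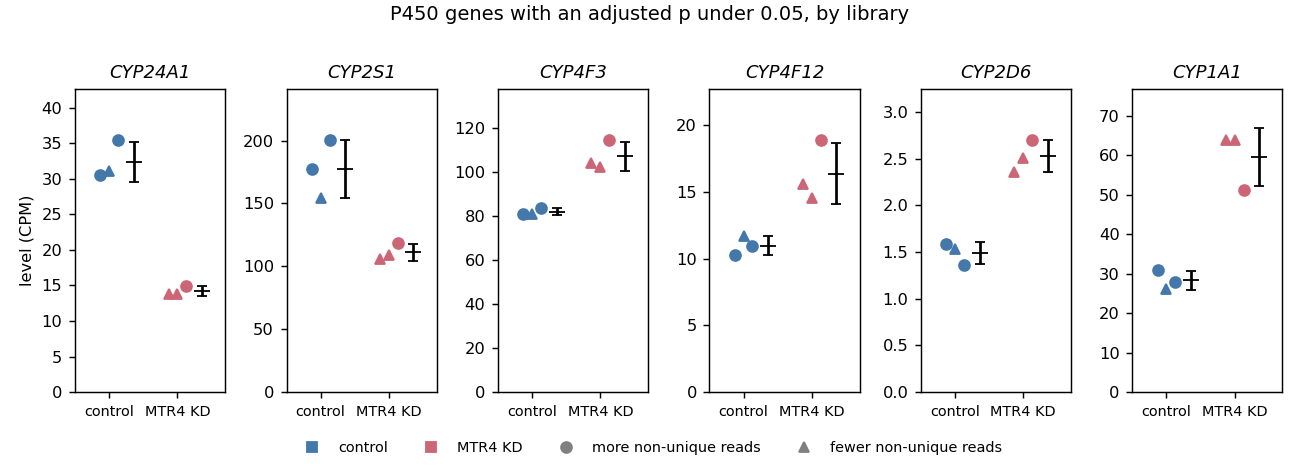
Level in CPM of the 6 P450 genes with an adjusted p under 0.05, 1 panel per gene with its own axis from 0 and 1 point per library, beside the mean ± SD of each group (n = 3). Circles and triangles are the alignment classes rich and poor in non-unique reads. In each panel the MTR4 KD libraries lie wholly below (CYP24A1, CYP2S1) or above (CYP4F3, CYP4F12, CYP2D6, CYP1A1) the control libraries.

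Of the 7 sterol and bile acid P450 genes, 5 were tested and none passed the test with condition only, while CYP8B1 passed with the alignment class. In this class 2 genes had an unadjusted p under 0.05, and DESeq2 and limma-voom called 0. CYP27A1, the mitochondrial sterol hydroxylase that starts the acidic route of bile acid synthesis, was at 30.8, 29.6 and 31.2 CPM in the control and at 31.1, 33.1 and 29.1 CPM in the MTR4 KD libraries. The groups overlapped, and the log2 fold change of 0.03 had a 95% interval of -0.14 to 0.20. CYP51A1, the lanosterol demethylase of cholesterol synthesis, was at 10.1, 16.2 and 9.68 CPM in the control and at 15.1, 15.8 and 12.8 CPM in the MTR4 KD libraries. The control library in the poor class was the highest of all 6. The log2 fold change of CYP51A1 was 0.28 (edgeR, adjusted p = 0.519) with condition only and 0.15 with the alignment class (adjusted p = 0.304). Without control replicate 2 it was 0.56 (edgeR, adjusted p = 0.0466). That fit has condition only and no control of the poor class, so it does not separate condition from class. Within the classes of all 6 libraries, the log2 difference of CYP51A1 was 0.38 in the rich and -0.06 in the poor class. CYP8B1, which directs bile acid synthesis to cholic acid, had 40, 30 and 20 reads in the control and 79, 50 and 56 reads in the MTR4 KD libraries. Its groups did not overlap, and its log2 fold change was 1.08 (edgeR, adjusted p = 0.153) with condition only and 1.09 with the alignment class (adjusted p = 0.0490). CYP39A1, an oxysterol hydroxylase, had 9, 13 and 17 reads in the control and 28, 23 and 24 reads in the MTR4 KD libraries (log2 fold change 0.97, edgeR, adjusted p = 0.210). For CYP46A1, the cholesterol hydroxylase known from neurons, the groups overlapped.

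Of the 3 vitamin D P450 genes, all tested, CYP24A1 fell and CYP2R1 and CYP27B1 did not pass the test. CYP24A1, the mitochondrial hydroxylase that inactivates vitamin D hormone and is itself induced by the vitamin D receptor, was at 30.5, 31.1 and 35.5 CPM in the control libraries. It was at 13.8, 13.8 and 15.0 CPM in the MTR4 KD libraries, far below every control. The log2 fold change was -1.19 (SE 0.0878, edgeR, adjusted p = 0.000943), a level 2.28-fold higher in the control libraries. The log2 difference was -1.14 in the rich and -1.17 in the poor class. CYP2R1, the microsomal enzyme that hydroxylates vitamin D to its circulating form, was at 24.4, 26.2 and 25.4 CPM in the control and at 25.0, 25.1 and 24.5 CPM in the MTR4 KD libraries. Its log2 fold change of -0.03 had a 95% interval of -0.18 to 0.13. CYP27B1, which makes the active hormone, was at 1.73, 1.43 and 1.81 CPM in the control and at 1.32, 1.32 and 2.12 CPM in the MTR4 KD libraries, with a log2 fold change of -0.06 (95% interval -0.62 to 0.49). The genes lie on different chromosomes, with CYP24A1 (ENSG00000019186) on chromosome 20 of GRCh38 from 54143538 to 54173986, CYP2R1 on chromosome 11 and CYP27B1 on chromosome 12.

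Of the 14 fatty acid and eicosanoid P450 genes, 8 were tested, of which 2 rose and 6 did not pass the test. CYP4F3, the leukotriene omega-hydroxylase, was at 80.8, 81.2 and 83.8 CPM in the control and at 104, 102 and 115 CPM in the MTR4 KD libraries. The groups did not overlap, and the log2 fold change was 0.39 (SE 0.0657, edgeR, adjusted p = 0.0249). CYP4F12, which hydroxylates fatty acids and some antihistamines, was at 10.3, 11.7 and 10.9 CPM in the control and at 15.6, 14.6 and 18.9 CPM in the MTR4 KD libraries. These did not overlap either, and the log2 fold change was 0.58 (SE 0.116, edgeR, adjusted p = 0.0451). Without control replicate 1, control replicate 3, MTR4 KD replicate 1 or MTR4 KD replicate 2 the adjusted p of CYP4F3 lay between 0.0984 and 0.142 and that of CYP4F12 between 0.0945 and 0.194. With limma-voom the adjusted p of CYP4F12 was 0.0524. Within the alignment classes rich and poor in non-unique reads, the log2 difference was 0.48 and 0.35 for CYP4F3 and 0.83 and 0.37 for CYP4F12.

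The CYP4F genes form 1 cluster on chromosome 19, in which the members did not move as a block. In GRCh38 order, CYP4F22 starts at 15508525, CYP4F8 at 15615218, CYP4F3 at 15640897, CYP4F12 at 15673087, CYP4F2 at 15878023 and CYP4F11 at 15912377. CYP4F3 and CYP4F12, which rose, are next to each other in this order. CYP4F11 was at 8.82, 8.69 and 7.87 CPM in the control and at 7.87, 7.69 and 8.77 CPM in the MTR4 KD libraries (log2 fold change -0.06, 95% interval -0.29 to 0.16). CYP4F2, the vitamin K and arachidonic acid hydroxylase, had a log2 fold change of -0.16 (95% interval -0.69 to 0.38), and CYP4F22, which acts in skin ceramide synthesis, of -0.23 (95% interval -0.64 to 0.17). CYP4F22 was at 1.43, 1.34 and 1.51 CPM in the control and at 1.11, 1.33 and 1.19 CPM in the MTR4 KD libraries, all below the controls. CYP4F8 had 2 reads in all. These paralogs are alike in sequence, so reads that fit several of them went uncounted.

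Outside that cluster, CYP2U1, a fatty acid hydroxylase of brain and thymus, was at 7.41, 7.55 and 6.53 CPM in the control and at 10.1, 10.3 and 8.05 CPM in the MTR4 KD libraries. CYP4V2, the fatty acid hydroxylase mutated in Bietti crystalline dystrophy, was at 2.59, 2.65 and 3.08 CPM in the control and at 3.36, 3.64 and 3.83 CPM in the MTR4 KD libraries. Neither gene's groups overlapped. With condition only the log2 fold changes were 0.41 for CYP2U1 (edgeR, adjusted p = 0.136) and 0.38 for CYP4V2 (adjusted p = 0.179). With the alignment class they were 0.32 (adjusted p = 0.0268) and 0.42 (adjusted p = 0.0437). CYP2J2, the arachidonic acid epoxygenase, was at 12.2 to 13.7 CPM in the control and at 12.1 to 13.4 CPM in the MTR4 KD libraries, with a log2 fold change of -0.02 (95% interval -0.22 to 0.17).

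Steroid hormone P450 genes were close to the limit of detection, and 2 of 6 were tested, without a call by edgeR, DESeq2 or limma-voom (1 at an unadjusted p under 0.05). CYP17A1, the hydroxylase and lyase of androgen synthesis, had 17, 27 and 34 reads in the control and 68, 57 and 43 reads in the MTR4 KD libraries, without overlap (log2 fold change 1.13, edgeR, adjusted p = 0.132). CYP19A1, the aromatase that makes oestrogens, had 14, 31 and 27 reads in the control and 13, 7 and 14 reads in the MTR4 KD libraries, which overlapped (log2 fold change -1.02, edgeR, adjusted p = 0.276). Among the retinoid P450 genes 3 of 4 were tested, also without a call by these tools (1 at an unadjusted p under 0.05). CYP26A1, which degrades retinoic acid and is induced by it, was at 3.34, 2.55 and 3.02 CPM in the control and at 2.13, 2.44 and 1.73 CPM in the MTR4 KD libraries. Every MTR4 KD library of CYP26A1 was below every control, with a log2 fold change of -0.50 (edgeR, adjusted p = 0.202, 0.0717 with the alignment class). For CYP26B1 and CYP27C1 the groups overlapped. CYP20A1, a P450 without an assigned substrate, was at 26.3, 32.7 and 25.3 CPM in the control and at 42.0, 42.6 and 28.5 CPM in the MTR4 KD libraries. The highest control exceeded the lowest MTR4 KD library, and in each group the libraries of the poor class were the higher ones. The log2 fold change of CYP20A1 was 0.42 (edgeR, adjusted p = 0.249) with condition only and 0.26 with the alignment class (adjusted p = 0.00972).

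**Figure D3:**
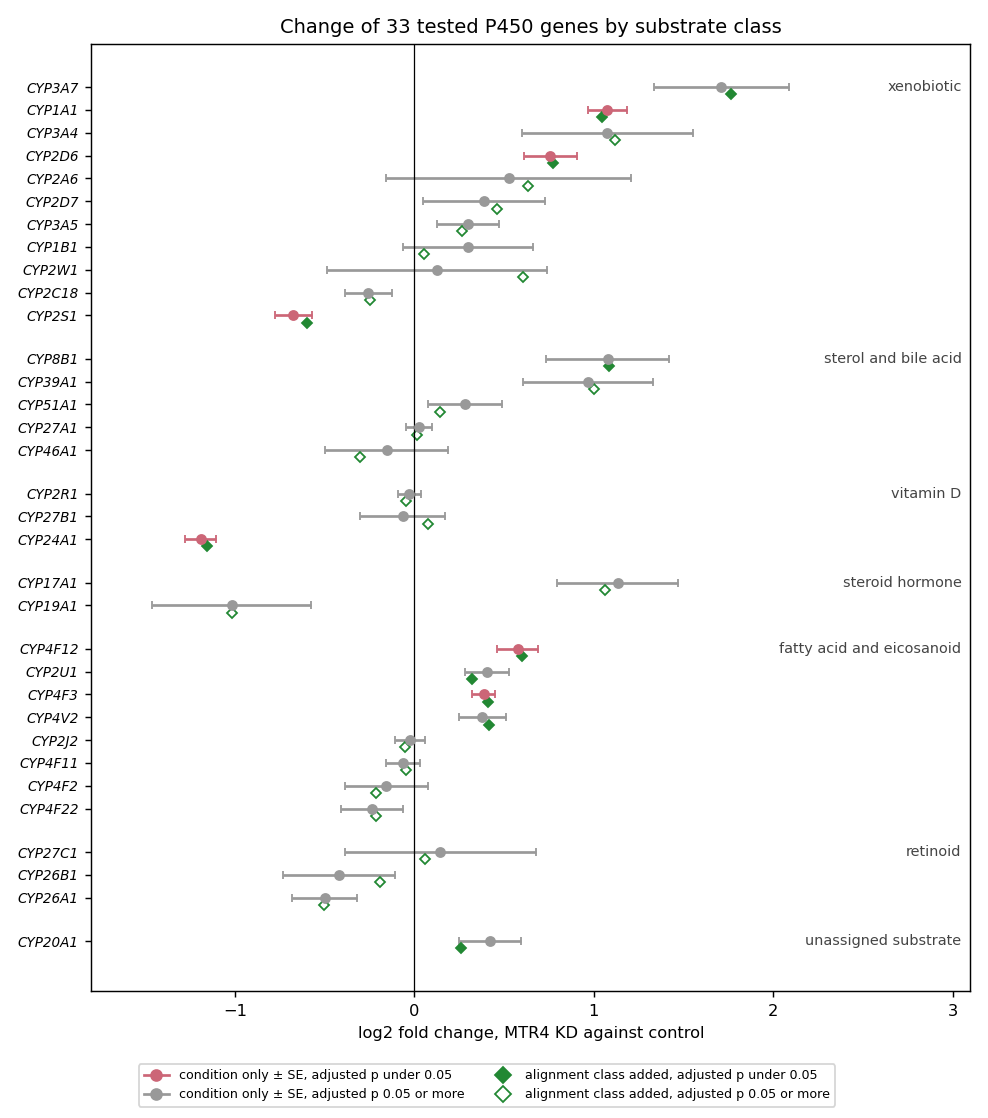
Log2 fold change of MTR4 KD against control for 33 of the 34 tested P450 genes by substrate class. Circles with bars are the estimate ± standard error with condition only (red: adjusted p under 0.05), and diamonds the estimate with the alignment class as a covariate (filled: adjusted p under 0.05). The xenobiotic genes span -0.68 to 1.71, and CYP24A1 lies at -1.19.

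The other genes of these pathways were followed with lists of receptors, electron donors and neighbouring enzymes, of which 102 genes were matched and 83 tested. Among the 83, 4 rose and 3 fell with condition only, and 18 rose and 15 fell with the alignment class. Over all tested genes, 3.6% were called with condition only and 20.2% with the alignment class. Of the 8 tested electron donor and haem genes, CYB5B fell (log2 fold change -0.38, edgeR, adjusted p = 0.0260) and 7 did not pass. CYB5B encodes the outer mitochondrial form of cytochrome b5. POR, the reductase that gives electrons to all microsomal P450 enzymes, was at 227, 197 and 242 CPM in the control and at 203, 213 and 223 CPM in the MTR4 KD libraries, which overlapped.

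None of the 8 genes of the AHR pathway and none of the 7 of the PXR and CAR pathway passed the test with condition only, while 3 genes of each had an unadjusted p under 0.05, DESeq2 called 1 of each and limma-voom called 0. AHR was at 105, 98.1 and 107 CPM in the control and at 88.6, 85.4 and 92.4 CPM in the MTR4 KD libraries, below every control. Its log2 fold change was -0.22 (edgeR, adjusted p = 0.124, and 0.00596 with the alignment class). TIPARP, an AHR target that represses the receptor, fell short of a call at -0.39 on the log2 scale (edgeR, adjusted p = 0.0719, and 0.000316 with the alignment class). Over the 8 genes of the AHR list, the mean in the MTR4 KD libraries was higher for 2 and lower for 6. The PXR gene NR1I2 was at 0.632, 0.648 and 0.530 CPM in the control and at 0.945, 1.38 and 1.17 CPM in the MTR4 KD libraries, without overlap. Its log2 fold change was 0.95 (edgeR, adjusted p = 0.0847), and 0.93 with the alignment class (adjusted p = 0.0299).

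In the vitamin D pathway 1 of 6 tested genes rose and 5 did not pass. GC, the vitamin D binding protein of plasma, was at 11.3, 10.3 and 9.78 CPM in the control and at 25.6, 27.0 and 23.8 CPM in the MTR4 KD libraries (log2 fold change 1.28, edgeR, adjusted p = 0.000849). VDR, the receptor that induces CYP24A1, was at 0.519, 0.469 and 0.464 CPM in the control and at 0.766, 0.569 and 1.09 CPM in the MTR4 KD libraries, all above the controls. Its log2 fold change of 0.74 did not pass (edgeR, adjusted p = 0.250). The part of VDR in the change of CYP24A1 was not tested. Of 14 tested genes of the bile acid pathway 2 rose. They were AKR1D1, the reductase of the bile acid ring (log2 fold change 1.48, adjusted p = 0.00530), and KLB, the FGF19 co-receptor (log2 fold change 0.54, edgeR, adjusted p = 0.0107).

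The cholesterol synthesis list, which holds the enzymes before and after CYP51A1, had 22 tested genes with a median log2 fold change of -0.00049, and 21 of them did not pass the test. In the fatty acid and eicosanoid list PTGS1, a cyclooxygenase, fell (log2 fold change -1.54, adjusted p = 0.0205) and EPHX2, which hydrolyses the epoxides made by CYP2J2, rose (log2 fold change 0.31, edgeR, adjusted p = 0.0348), while 3 genes did not pass. With condition only, no gene passed among the 5 tested of the steroid hormone list, the 10 tested of the retinoid list, or in PTGIS, 1 of the pair of P450 genes with other symbols (TBXAS1 was not tested). At an unadjusted p under 0.05 there was 1 gene of the steroid hormone list, 2 of the retinoid list and 0 for PTGIS. DESeq2 called 1, 1 and 0 of them, and limma-voom called 0. With the alignment class HSD11B2 (adjusted p = 0.00642) and NR5A2 (adjusted p = 0.00690) of the steroid hormone list and ALDH1A2 (adjusted p = 0.0193) of the retinoid list rose, and RARG (adjusted p = 0.00290) of the retinoid list fell. In the other lists that fit gave 0 rises and 3 falls among the electron donor and haem genes, and 0 and 2 in the AHR list. It gave 3 and 1 in the PXR and CAR, 2 and 1 in the vitamin D and 4 and 2 in the bile acid list. In the cholesterol synthesis list it gave 5 and 4, and in the fatty acid and eicosanoid list 2 and 2. Over all tested genes the same fit called 20.2%.

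Marker genes of the liver and of other cell types were measured beside these results. Of the 9 hepatocyte markers 3 rose (ALB, APOA1 and TTR) and 6 did not pass, and their summed level was 28946 to 31043 CPM in the control and 29803 to 32229 CPM in the MTR4 KD libraries. The immune markers summed to 28.9 to 34.0 CPM in the control and 24.9 to 27.1 CPM in the MTR4 KD libraries, with 2 of 5 tested. Neither was called by edgeR with condition only, 1 was called by DESeq2, and both fell with the alignment class (CD14, log2 fold change -1.43, adjusted p = 0.00821, and LYZ, -0.26, adjusted p = 0.0119). For the endothelial markers the sums were 0.0994 to 0.400 and 0.244 to 0.571 CPM with 1 tested, and for the stromal markers 8.14 to 14.6 and 6.43 to 11.4 CPM with 4 tested. None of these was called with condition only, and with the alignment class COL3A1 fell (log2 fold change -0.82, adjusted p = 0.0398). The 4 cholangiocyte markers summed to 57.3 to 75.1 CPM in the control and 49.0 to 64.5 CPM in the MTR4 KD libraries. Of these KRT19 fell (log2 fold change -2.67, edgeR, adjusted p = 0.0318), and 3 did not pass. KRT19 was low, at 1.02, 0.690 and 0.978 CPM in the control and at 0.195, 0.0449 and 0.179 CPM in the MTR4 KD libraries. The last values are close to the limit of detection. Of the 4 markers, 1 had a higher and 3 a lower mean in MTR4 KD. With the alignment class FGB of the hepatocyte markers also rose (adjusted p = 0.00217) and SOX9 of the cholangiocyte markers also fell (adjusted p = 0.000503). The part of these marker levels in the P450 results was not tested.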

How the data were processed

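RNA-seq of total RNA from 3 control and 3 MTR4 KD samples of PLC/PRF5 cells was analysed. The authors deposited raw counts per gene, 1 file per sample. The submitters' processing notes name HISAT2 (version 2.1.0), HTSeq, DESeq2 and GRCh38. Strandedness is not given in the sources used here. Rows of reads assigned to no gene held 37.7% to 49.3% of the entries of a library and were left out of totals and tests. Counts on genes were 60686786 to 72708682 per library.

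Genes were filtered with filterByExpr (minimum count 10), scaled by TMM and tested with edgeR 4.0.16 (quasi-likelihood, condition as the only term) in R 4.3.3, with Benjamini-Hochberg adjustment over the 18075 genes left. A gene was called at an adjusted p under 0.05. The 95% intervals are per gene and unadjusted. On simulated counts for 17726 genes, 168 of 200 genes changed 2-fold were recovered, and 8 unchanged genes were called. The changed genes had a mean above 1 CPM, and the simulated libraries had no alignment classes. The recovery of members with a mean under 1 CPM was not tested. The alignment class splits libraries at 30% non-unique reads. Exon length is the union of annotated exons in GENCODE v44 lifted to GRCh37, and gene positions and promoters come from RefSeq GRCh38.p14. Alternatives were DESeq2 1.42.0, limma-voom (limma 3.58.1), other scalings and filters, covariates, and leaving out each library. The 2-sided tests measure the spread between these samples.

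The members, substrate classes, pathway and marker lists and the alignment class were chosen with earlier results of these data known. Described in full are members called in either fit, the leading member of each class by level per exon length, and a fixed set of CYP1, CYP3A, sterol and vitamin D genes. From the pathway lists AHR, VDR, POR, NR1I2 and called genes are named. TIPARP, genes called with the alignment class alone and the members outside this rule were named after their values were seen. The values of 1 member and 1 pathway gene are not reported here.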

Additional observations from a re-analysis of the deposited data

How the results depend on the processing

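CYP1A1 and CYP24A1 had an unchanged sign and stayed called in all 15 alternatives, with log2 fold changes of 1.01 to 1.18 and -1.23 to -1.12. CYP2S1 and CYP4F3 stayed called in 11 of 15 alternatives, CYP4F12 in 10 and CYP2D6 in 7. With the alignment class, 9 members rose, 4 passed a fold change of 2, and 4 fatty acid, 1 sterol and 1 unassigned member were called, as were 18 rises and 15 falls among the pathway genes. With limma-voom 1 fatty acid member was called, and with DESeq2 the pathway genes gave 9 rises and 5 falls. With 1 library left out, the members gave 1 to 5 rises and 1 to 2 falls, with 0 to 3 fatty acid, 0 to 1 sterol, 0 to 1 unassigned and 1 to 2 xenobiotic calls, and the pathway genes 2 to 4 rises and 0 to 4 falls. The number of all genes called fell to 137 to 183 without control replicate 1, control replicate 3, MTR4 KD replicate 1 or MTR4 KD replicate 2. It was 803 without control replicate 2 and 622 without MTR4 KD replicate 3, beside 650 with all 6 libraries. Without control replicate 2 no control of the poor class was left. Without MTR4 KD replicate 3 no MTR4 KD library of the rich class was left. Those fits, with condition only, do not separate condition from class. The sign of small changes turned for CYP27A1 without MTR4 KD replicate 2 (log2 fold change -0.023, range -0.023 to 0.076 with 1 library left out). It also turned for CYP27B1 with the alignment class (0.074) and without control replicate 3 or MTR4 KD replicate 1 or 2 (range -0.33 to 0.053 with 1 library left out). The cause of these changes was not tested.

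Deviations from the group means correlated at -0.41, 0.50 and 0.53 for control and MTR4 KD samples of equal replicate number (1, 2 and 3). The samples numbered 2 and 3 shared an alignment class and those numbered 1 did not. A pairing by number was therefore not separated from class by these values. Pairs of other numbers in the same class correlated at 0.54 and 0.51. Libraries of the same alignment class correlated at 0.52 on average and those of different classes at -0.46. With the replicate number as a block 857 genes were called in all and 6 pathway genes fell, and CYP2D6 was not called (edgeR, adjusted p = 0.0635). Depth limits the 23 untested members, which had at most 50 reads over 6 libraries.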

Other observations

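The files also count 53 genes with a symbol of the same form that are not protein-coding, mostly pseudogenes of the P450 clusters. No read fell on 20 of them in any library, and 8 had enough reads to be tested. None of the 8 was called by edgeR, DESeq2 or limma-voom, and 0 had an unadjusted p under 0.05. Their log2 fold changes had a median of 0.14, with 7 above and 1 below 0.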
